A study of Homo sapiens with 38 samples.

Results

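The Iroquois homeobox (IRX) genes were followed in a human embryonic stem cell line as it left the naive state of pluripotency. They comprised IRX1, IRX2, IRX3, IRX4 and IRX5, which were 5 of the 57133 genes of the count table and were taken by symbol. The set was chosen by the measured values of IRX3, which was among the genes with the largest fall after the cells left naive medium in these same libraries, and the other genes were taken with it as a family. The values of IRX3 in naive cells against later days therefore chose it, and for all 5 genes the levels against naive cells are given as a description with no test. For the members, tests were kept to contrasts between media, between later days, between supplements and between cultures of the same state. Genes outside the set, which the choice did not use, were also tested at day 8 against naive cells.

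IRX genes encode transcription factors of the TALE class of homeodomain proteins, in which the DNA-binding homeodomain carries an extra loop. The PBX and MEIS families belong to the same class. In mammals the genes lie in a pair of clusters, with IRX4, IRX2 and IRX1 in one and IRX3, IRX5 and IRX6 in the other. They are known for subdividing territories in the embryo, above all in the neural tube, the heart and the limbs. IRX4 is a marker of the ventricles of the heart, and IRX3 and IRX5 act in the conduction system of the heart and in the neural tube.

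All samples came from Shef6, an established human embryonic stem cell line, in a naive culture that is labelled as serum-adapted and so is shared by all groups, and were measured by 3′ tag RNA sequencing (QuantSeq), which reads each transcript near its polyadenylated end. Naive cells were grown in PXGL, which contains inhibitors of MEK, tankyrase and PKC together with LIF. The library names of the naive samples read PXGLY, and the labels do not explain the added letter. The dishes were coated with serum or with the basement membrane extract Geltrex. For capacitation, in which naive cells acquire the ability to respond to lineage cues, PXGL was exchanged on Geltrex for N2B27 basal medium, for the commercial media E8 or mTeSR, or for N2B27 carrying supplements. These were the tankyrase inhibitor XAV939 alone (XAV) or XAV939 joined by FGF2 and Activin A (FAX). The first experiment (Ex1) held 30 libraries. They covered both naive cultures, 5 days (2, 3, 4, 6 and 8) in N2B27 and in E8, and the last 3 of these days in mTeSR. The 8 libraries of the second experiment (Ex2) covered a naive culture on Geltrex together with day 4 in each of N2B27, XAV and FAX. The titles put this naive culture at day 0 while its library names carry day 4, and the titles were followed. Each of the 19 groups had 2 libraries, all of 1 line, and the spread between them is that of libraries within an experiment.

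Total counts per library ran from 3038046 to 5612354 with a median of 4427277. At these depths 3 counts, taken as the floor of detection, corresponded to 0.520 to 1.06 CPM (counts scaled to the effective size of the library), and this floor covers counting error only. The 7 naive markers of the list (KLF17, DPPA5, SUSD2, DNMT3L, SPIC, KLF5 and TFCP2L1) summed to 1239 to 1628 CPM in the 6 naive libraries and to 375 to 479 CPM in the 6 libraries of day 8, while the 6 primed or formative markers (ZIC2, SALL2, CDH2, SFRP2, THY1 and DUSP6) summed to 19 to 24.3 CPM and to 546 to 762 CPM. The cultures thus carried the markers of their labels. These are bulk libraries, in which a change in the share of cells that express a gene and a change in its RNA per cell cannot be told apart.

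The positions below are those of GENCODE release 44 on GRCh38, since the count table itself holds symbols only. On the short arm of chromosome 5 the genes lie in the order IRX4 (chr5:1877413-1887236, minus strand), IRX2 (chr5:2745845-2751677, minus strand) and IRX1 (chr5:3595832-3601403, plus strand). On the long arm of chromosome 16 they are IRX3 (chr16:54283304-54286787, minus strand), IRX5 (chr16:54930865-54934485, plus strand) and IRX6 (chr16:55324203-55330756, plus strand). IRX6, the sixth Iroquois gene, was no member and is described beside IRX5.

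Promoter windows were available for the chromosome 5 cluster and not for IRX3, IRX5 or IRX6. The members of the chromosome 5 cluster took unlike courses in the same cells, with IRX2 high throughout, IRX4 high early and IRX1 high late. Their windows are shown. Each holds 300 bases spanning a start site as annotated by RefSeq on GRCh38.p14 (for IRX4, 1 of 3 annotated), read 5′ to 3′ on the strand of the gene. Capitals mark a match, on either strand, to CCAAT (the CCAAT box), TATAAA (the TATA box), ATGCAAAT (the octamer of POU factors) or ATCAAAG (the core of TCF/LEF sites), motifs that were chosen after the sequences had been seen. The IRX4 window lies at chr5:1886896-1887195 (minus strand), the IRX2 window at chr5:2751628-2751927 (minus strand) and the IRX1 window at chr5:3595582-3595881 (plus strand).
IRX4: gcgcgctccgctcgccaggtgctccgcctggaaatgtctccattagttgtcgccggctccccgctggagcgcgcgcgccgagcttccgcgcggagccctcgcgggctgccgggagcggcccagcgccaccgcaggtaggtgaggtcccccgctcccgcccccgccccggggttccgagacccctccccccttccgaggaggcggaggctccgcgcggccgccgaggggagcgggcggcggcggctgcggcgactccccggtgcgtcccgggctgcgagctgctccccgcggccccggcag
IRX2: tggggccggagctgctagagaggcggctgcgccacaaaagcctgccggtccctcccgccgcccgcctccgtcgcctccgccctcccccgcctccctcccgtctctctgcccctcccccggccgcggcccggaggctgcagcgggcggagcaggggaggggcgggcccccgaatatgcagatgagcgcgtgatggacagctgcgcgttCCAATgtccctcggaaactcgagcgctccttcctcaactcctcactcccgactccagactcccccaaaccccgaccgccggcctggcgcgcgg
IRX1: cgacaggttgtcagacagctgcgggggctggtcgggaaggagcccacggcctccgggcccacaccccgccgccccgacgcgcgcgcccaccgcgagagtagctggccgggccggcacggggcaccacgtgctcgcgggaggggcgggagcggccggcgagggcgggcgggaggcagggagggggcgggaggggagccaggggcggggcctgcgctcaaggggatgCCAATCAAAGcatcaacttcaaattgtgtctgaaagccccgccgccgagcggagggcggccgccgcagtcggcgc

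All 3 windows were rich in CpG dinucleotides, with 47 in IRX4, 34 in IRX2 and 38 in IRX1, where the median over 27305 promoter windows of the same length was 14. As many as in IRX4 were found in 2.4% of all windows, as many as in IRX2 in 15.3% and as many as in IRX1 in 9.7%. The G+C content was 79.7%, 73.3% and 76.0% in the same order. None of the 3 windows held the letters TATAAA, which stood in 12.0% of all windows, or ATGCAAAT, which stood in 1.8%. CCAAT was found once in IRX2 and once in IRX1, and in 35.7% of all windows. ATCAAAG was found once, in IRX1, where it overlaps the CCAAT box by its first letters, and in 2.6% of all windows. The GC box, GGGCGG on either strand (not capitalised, 44.6% of all windows), occurred 7 times in IRX1, 4 times in IRX2 and 3 times in IRX4. The IRX4 windows not shown held 44 and 36 CpG dinucleotides, and as many stood in 4.1% and 12.5% of all windows. Their G+C content was 75.0% and 63.0%, and they held 2 and 0 GC boxes. The IRX4 values thus depend on the start site taken. The IRX2 window shares 285 of its 300 bases with the window of C5orf38, the divergent transcript also named IRX2-DT, which is read from the opposite strand. Such a match describes the letters of the window and nothing about the binding of a factor.

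**Figure D1:**
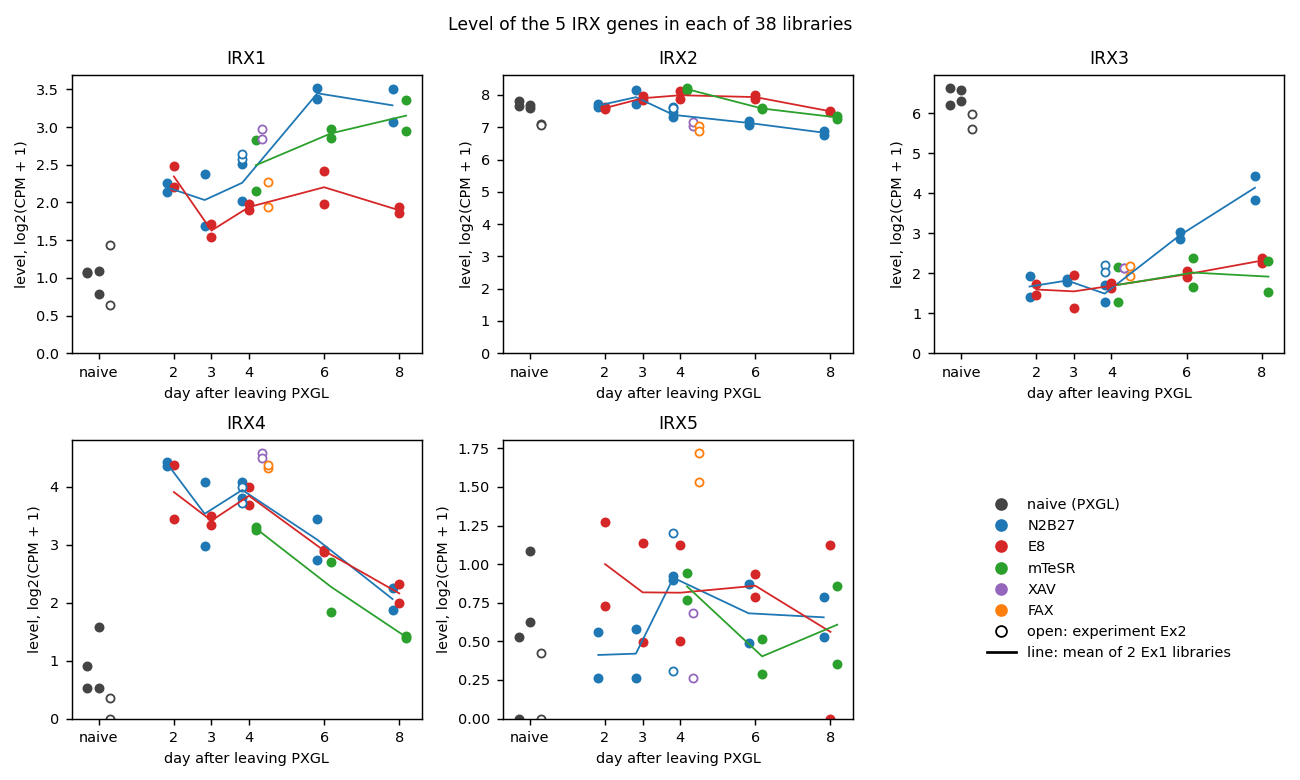
Level of each IRX gene as log2(CPM + 1) (vertical axes, scaled to each gene) in naive cells and by day after leaving PXGL (horizontal axes), with 1 point per library, open points for Ex2 and lines through the means of the Ex1 libraries. IRX3 is high in the 6 naive points and low afterwards with a late rise in N2B27, IRX4 is high from day 2 to day 4, IRX1 is high late in N2B27 and mTeSR, IRX2 stays between 108 and 298 CPM, and IRX5 does not exceed 2.29 CPM.

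The 5 genes differed widely in level, as the plot of all libraries shows. IRX2 was the highest of them in every library, with 395 to 1321 counts or 108 to 298 CPM. IRX3 had 5 to 531 counts, IRX4 had 0 to 114 and IRX1 had 2 to 52. IRX5 had 113 counts in all 38 libraries together, at most 9 in any of them, and IRX6 had 10, at most 2. IRX1, IRX2, IRX3 and IRX4 passed the filter on low counts and were tested, whereas IRX5 and IRX6 did not pass and are given as counts. Because 3′ tags are counted once per transcript, CPM values were compared between libraries for each gene, and no ranking of genes per length was made.

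IRX3, the gene on which the set was picked, was at 48.1, 75.7 and 98.9 CPM at the lowest, median and highest of the 6 naive libraries. By day 2 it stood at 2.80 and 1.66 CPM in the N2B27 libraries and at 1.77 and 2.30 CPM in those of E8. All libraries of days 2, 3 and 4 lay between 1.20 and 3.65 CPM in whichever medium, and none overlapped the naive range. Relative to the naive libraries the log2 difference was -5.06 ± 0.36 (SE) in N2B27 and -5.21 ± 0.39 in E8 at day 2, which corresponds to levels 33.3-fold and 36.9-fold lower. At day 4 it was -4.92 ± 0.26 in N2B27, -5.08 ± 0.35 in E8, -4.95 ± 0.36 in mTeSR, -4.48 ± 0.33 in XAV and -4.57 ± 0.34 in FAX. IRX3 was thus low in all 5 media sampled at day 4. These differences chose the gene and carry no test. Against the naive libraries of Ex2 alone, in which IRX3 was lower (48.1 and 62.0 CPM), the values were -4.01 in XAV and -4.10 in FAX.

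IRX3 then rose again in N2B27 and not detectably in the commercial media. At day 6 the N2B27 libraries had 6.25 and 7.25 CPM and at day 8 they had 20.7 and 13.4 CPM, whereas at day 4 in Ex1 they had 2.25 and 1.43 CPM. The libraries of the 3 days did not overlap, and the day 8 libraries remained below the naive range. The step from day 4 to day 6 was 1.85 ± 0.39 on the log2 scale (edgeR quasi-likelihood test, adjusted p = 0.00138) and that from day 6 to day 8 was 1.32 ± 0.28 (adjusted p = 0.00382). In E8 IRX3 was at 3.14 and 2.73 CPM at day 6 and at 3.75 and 4.24 CPM at day 8. In mTeSR it was at 4.20 and 2.16 CPM at day 6 and at 1.9 and 3.92 CPM at day 8. At day 8 both N2B27 libraries thus lay above all 4 libraries of the other media. The log2 difference of E8 from N2B27 was -1.20 ± 0.38 at day 6 (adjusted p = 0.0280) and -2.08 ± 0.31 at day 8 (adjusted p = 7.64e-06), a level 4.23-fold lower at day 8. That of mTeSR from N2B27 was -1.09 ± 0.37 at day 6, which missed the threshold (adjusted p = 0.0585), and -2.53 ± 0.35 at day 8 (adjusted p = 6.00e-06), a level 5.78-fold lower. The day 8 differences passed in each of 11 other settings. The day 6 difference of E8 from N2B27 was lost when any 1 of its 4 libraries was left out, with adjusted p = 0.0611 and 0.149 without replicates 1 and 2 of N2B27 and 0.0957 and 0.181 without those of E8. The step from day 6 to day 8 in N2B27 was lost without replicate 1 of day 6 (1.22, adjusted p = 0.0688) or replicate 1 of day 8 (0.98, adjusted p = 0.150).

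Whether the late rise itself differed between media was tested as the difference of the day 4 to day 8 step, a comparison added after the values had been seen. In N2B27 the step was 3.17 ± 0.34 (9.01-fold, adjusted p = 1.66e-08), in E8 it was 0.82 ± 0.43 (adjusted p = 0.175) and in mTeSR 0.24 ± 0.49 (adjusted p = 0.768). The N2B27 step starts from the day 4 libraries of Ex1 (2.25 and 1.43 CPM). Those of Ex2, which was not sampled at day 8, were higher at 3.65 and 3.09 CPM. The step in N2B27 exceeded that in E8 by 2.35 ± 0.58 (adjusted p = 0.0234) and that in mTeSR by 2.93 ± 0.62 (adjusted p = 0.00479). Over all genes tested, 1.43% and 1.69% were called in these comparisons of steps, and 0.96% in that of mTeSR with E8, where no member was called (1 of 4 had an unadjusted p under 0.05 in edgeR, and DESeq2 called none either). With single libraries left out the difference from E8 kept its sign and was lost without replicate 2 of N2B27 day 4 (2.07, adjusted p = 0.126), replicate 1 of N2B27 day 8 (2.01, adjusted p = 0.0946), either E8 library of day 4 (2.43 and 2.25, adjusted p = 0.0933 and 0.145) or replicate 1 of E8 day 8 (2.25, adjusted p = 0.0818). The difference from mTeSR was lost without replicate 2 of mTeSR day 4 (2.15, adjusted p = 0.228).

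**Figure D2:**
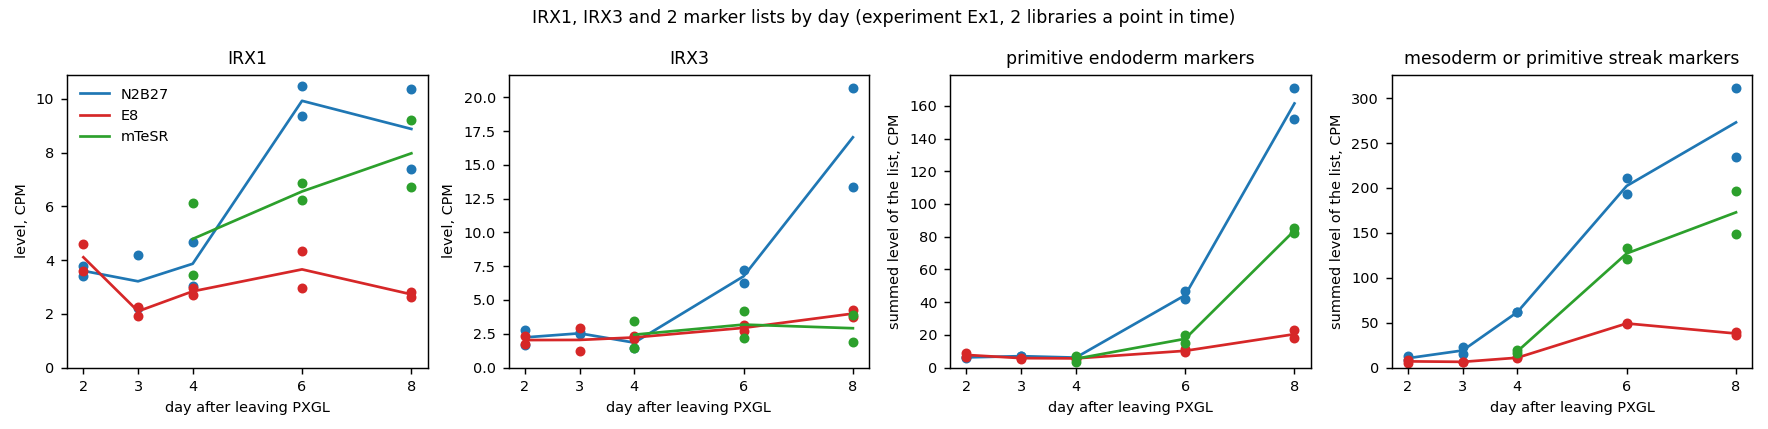
Level of IRX1 and IRX3 in CPM (left panels) and the summed CPM of the primitive endoderm and of the mesoderm or primitive streak markers (right panels) by day after leaving PXGL in N2B27, E8 and mTeSR of Ex1, with 1 point per library and lines through the means. At day 8 IRX3 is high in N2B27 alone (13.4 and 20.7 CPM), whereas IRX1 and both marker sums are high in N2B27 and mTeSR and low in E8.

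IRX1 was near the floor in naive cells and highest late, in N2B27 and mTeSR. The 6 naive libraries had 2 to 5 counts each, or 0.553, 1.10 and 1.71 CPM at the lowest, median and highest. In N2B27 it stood at 3.40 and 3.80 CPM at day 2, at 4.68 and 3.05 CPM at day 4 in Ex1, at 9.38 and 10.5 CPM at day 6 and at 10.4 and 7.41 CPM at day 8. The log2 difference from naive cells, given as a description, was 1.79 ± 0.35 at day 2, 3.25 ± 0.29 at day 6 and 3.08 ± 0.29 at day 8. The naive libraries overlapped none of the later ones. The step from day 4 to day 6 in N2B27 was 1.35 ± 0.30 (adjusted p = 0.00259), and the step from day 6 to day 8 was -0.17 ± 0.28 (adjusted p = 0.840). Without replicate 2 of N2B27 day 4 the former was 1.08 (adjusted p = 0.0791) and no longer called.

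In E8 IRX1 stayed low, with 4.35 and 2.96 CPM at day 6 and 2.62 and 2.83 CPM at day 8. In mTeSR it reached 6.86 and 6.25 CPM at day 6 and 9.23 and 6.72 CPM at day 8, so that at both days the E8 libraries lay below all others. The log2 difference of E8 from N2B27 was -1.44 ± 0.32 at day 6 (adjusted p = 0.00190) and -1.69 ± 0.33 at day 8 (adjusted p = 0.000423), the latter a level 3.22-fold lower. At day 8 IRX1 was higher in mTeSR than in E8 by 1.55 ± 0.35 (adjusted p = 0.00277), and the difference of mTeSR from N2B27 was -0.14 ± 0.30 with a 95% interval of -0.75 to 0.46 (adjusted p = 0.826). The day 8 difference of E8 from N2B27 passed in each of 11 other settings. That of day 6 was lost without replicate 2 of E8 (-1.19, adjusted p = 0.0703), and the difference of mTeSR from E8 was lost without replicate 1 of mTeSR (1.30, adjusted p = 0.0564). From day 4 to day 8 IRX1 rose by 1.18 ± 0.31 in N2B27 (adjusted p = 0.00525), which was lost without replicate 2 of day 4 (0.91, adjusted p = 0.108) or replicate 1 of day 8 (0.93, adjusted p = 0.102). The steps of IRX1 in E8 (-0.06 ± 0.39) and mTeSR (0.74 ± 0.33) were not called, and the difference of the N2B27 step from that of E8 was 1.25 ± 0.50 (adjusted p = 0.219).

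At day 8 IRX1 and IRX3 were both high in N2B27 and both low in E8, whereas in mTeSR IRX1 was high and IRX3 low. Markers of other cell types differed between the media at day 8, and those of primitive endoderm and mesoderm were high in N2B27 and mTeSR and low in E8, as IRX1 was, while IRX3 was low in mTeSR. The 5 primitive endoderm markers (SOX17, GATA4, GATA6, PDGFRA and FOXA2, all tested) summed at day 8 to 152 and 171 CPM in N2B27, 82.3 and 85.2 CPM in mTeSR and 18.1 and 22.7 CPM in E8, against 0.683 to 4.21 CPM in naive cells. The 6 mesoderm or primitive streak markers (TBXT, MIXL1, EOMES, MESP1, HAND1 and TBX6, of which 4 were tested) summed to 235 and 311 CPM in N2B27, 149 and 197 CPM in mTeSR and 36.7 and 39.1 CPM in E8. No marker of either list was at 0 at day 8 in N2B27, and MESP1 was at 0 in E8. The 5 trophectoderm markers (4 tested) summed to 58.9 and 70.5 CPM in N2B27 at day 8, 10.9 and 11.4 CPM in mTeSR and 13.5 and 18.6 CPM in E8. At that day they were high in N2B27 alone, as IRX3 was. At day 6 they summed to 27.7 and 28.4 CPM in N2B27, 20.8 and 21.3 CPM in mTeSR and 34.8 and 38.7 CPM in E8. They were thus highest in E8 at day 6, when IRX3 was lower in E8 than in N2B27. The 6 neural markers (2 tested) summed to no more than 6.32 CPM in the 6 libraries of day 8. The 4 amnion markers (3 tested) summed to 7.28 to 15.7 CPM there. These sums hide changes of single markers against naive cells. Of the 3 tested amnion markers 2 were called higher in each medium, and 1 was called lower in E8 and in mTeSR. Their median log2 difference was 4.29 in N2B27, 6.03 in E8 and 4.93 in mTeSR. Of the 2 tested neural markers 1 was called higher in each medium, and 1 was called lower in E8 and in mTeSR. The part of these other cell types in the levels of IRX1 and IRX3 was not tested.

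IRX4 was low in naive cells, high from day 2 to day 4 and lower at day 8. It had 0, 1, 2, 2, 4 and 11 counts in the 6 naive libraries, or at most 1.98 CPM, and 87 to 98 counts in N2B27 at day 2. In N2B27 the libraries stood at 19.6 and 20.6 CPM at day 2, at 6.89 and 16 CPM at day 3, at 13.0 and 15.9 CPM at day 4 in Ex1, at 5.63 and 9.87 CPM at day 6 and at 2.64 and 3.79 CPM at day 8. In E8 they stood at 9.91 and 19.7 CPM at day 2, at 11.9 and 15.0 CPM at day 4, at 6.52 and 6.37 CPM at day 6 and at 3.0 and 4.0 CPM at day 8. All 32 libraries of the later days but those of mTeSR day 8 (1.63 and 1.68 CPM) lay above all naive ones. As a description, the log2 difference from naive cells was 4.66 ± 0.37 in N2B27 and 4.22 ± 0.41 in E8 at day 2, and 2.04 ± 0.50 and 2.13 ± 0.50 at day 8. These values rest on few naive counts, with 1 count in the 2 naive libraries of Ex2 together, and no fold is given against those alone.

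From its early peak IRX4 fell in every medium sampled to day 8. The day 4 to day 8 difference, added after the values had been seen, was -2.14 ± 0.37 in N2B27 (adjusted p = 5.55e-05). It was -1.95 ± 0.38 for E8 (adjusted p = 0.000280), and for mTeSR -2.38 ± 0.50 (adjusted p = 0.000614). These are levels 4.41-fold, 3.87-fold and 5.21-fold lower. These 3 differences passed in each of 11 other settings. None of the shorter steps of IRX4 was called, the nearest to the threshold being that from day 4 to day 6 in E8 (-1.06 ± 0.35, adjusted p = 0.0586) and in N2B27 (-0.89 ± 0.32, adjusted p = 0.0638). When only the compared libraries were fitted, that of E8 day 6 was called (-1.08, adjusted p = 0.00232). Without replicate 2 of N2B27 day 3, the higher of that pair, the step from day 2 to day 3 was also called (-1.54, adjusted p = 0.00820). Between media IRX4 differed in none of the 11 comparisons (2 had an unadjusted p under 0.05). At day 8 its difference of E8 from N2B27 was 0.08 ± 0.46, with a 95% interval of -0.86 to 1.03. In mTeSR it was the lowest of the 3 media at each day, with 8.94 and 8.52 CPM at day 4 and 5.53 and 2.59 CPM at day 6, but the difference from N2B27 was not called (-0.73 ± 0.32 at day 4, adjusted p = 0.214, and -0.97 ± 0.58 at day 8, adjusted p = 0.319).

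The 6 neural markers, of which 2 passed the filter, summed to 4.44 to 7.41 CPM in naive cells, to 15.0 to 26.6 CPM in N2B27 at days 2 and 3 and to 6.17 and 6.32 CPM at day 8. In E8 they summed to 9.20 to 15.9 CPM at days 2 and 3 and to 7.10 and 7.30 CPM at day 4, when IRX4 was at 11.9 and 15.0 CPM. At day 4 they summed to 16.1 and 18.7 CPM in N2B27 of Ex1, 16.2 and 19.5 CPM in N2B27 of Ex2, 13.1 and 14.7 CPM in XAV and 17.3 and 18.7 CPM in FAX, where IRX4 was also high, and to 6.12 and 8.75 CPM in mTeSR. The part of neural cells in the level of IRX4 was not tested.

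**Figure D3:**
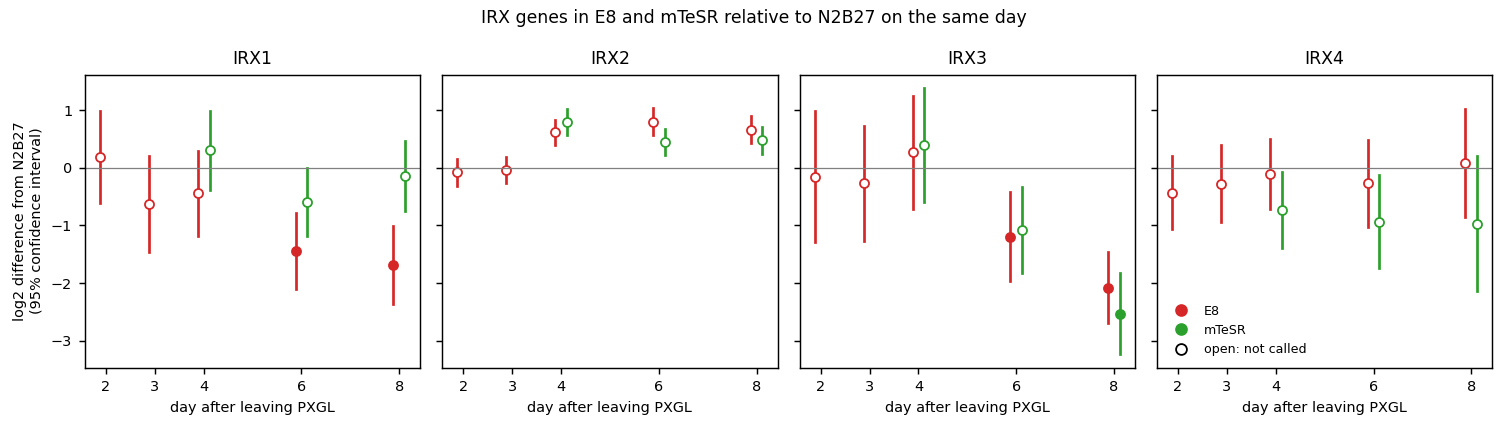
Log2 difference of E8 (red) and of mTeSR (green) from N2B27 on the same day after leaving PXGL, for IRX1, IRX2, IRX3 and IRX4, with 95% confidence intervals and filled points for called differences. Filled points stand only at IRX1 (E8, days 6 and 8) and IRX3 (E8, days 6 and 8, and mTeSR, day 8), while all IRX2 points from day 4 on lie between 0.45 and 0.80.

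IRX2 was expressed throughout and moved within narrow bounds. The naive libraries had 134, 196 and 223 CPM at the lowest, median and highest, and the later libraries ran from 108 CPM (N2B27 day 8) to 298 CPM (mTeSR day 4). Its log2 difference from naive cells, as a description, was 0.67 ± 0.13 in mTeSR at day 4 and -0.69 ± 0.15 in N2B27 at day 8. None of its differences between media was called, because none exceeded 1 on the log2 scale, but 6 of 11 had an adjusted p under 0.05. These were all 6 comparisons with N2B27 from day 4 on, and in all of them IRX2 was lower in N2B27. At day 4 the N2B27 libraries had 175 and 157 CPM, those of E8 276 and 233 CPM and those of mTeSR 281 and 298 CPM, with no overlap. The difference of E8 from N2B27 was 0.61 ± 0.11 at day 4 (adjusted p = 0.000462), 0.80 ± 0.11 at day 6 (adjusted p = 5.29e-06) and 0.66 ± 0.11 at day 8 (adjusted p = 7.24e-05). That of mTeSR from N2B27 was 0.80 ± 0.11, 0.45 ± 0.11 and 0.48 ± 0.12 on the same days (adjusted p = 2.21e-05, 0.00956 and 0.00573). The values at day 6 and day 8 had an adjusted p of up to 0.12 and 0.0927 in other settings. From day 4 to day 8 IRX2 was lower by less than 1 on the log2 scale in all 3 media, with -0.56 ± 0.11 in N2B27, -0.51 ± 0.11 in E8 and -0.88 ± 0.11 in mTeSR (adjusted p = 0.000470, 0.00110 and 5.59e-07), and that in E8 had an adjusted p of 0.0547 without replicate 1 of E8 day 4.

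The whole course from day 2 to day 8 was compared between E8 and N2B27 in 1 test of the 4 interaction terms of medium and day. IRX2 and IRX3 had an adjusted p under 0.05 in this test (0.000122 and 0.0208), where 11% of all genes tested did. IRX1 missed it narrowly (0.0511) and IRX4 did not reach it (0.937). For IRX2 the test passed in all 26 other settings. For IRX3 it was lost without replicate 1 of N2B27 day 8 (adjusted p = 0.0837), without replicate 1 of E8 day 8 (0.0757) and with DESeq2 (0.159). For IRX1 the p crossed the threshold in 9 of the 26 other settings, for example with RLE size factors (0.0446), and was lowest without replicate 2 of N2B27 day 3 (0.0241).

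Set against all 16674 genes tested, the calls among the 4 members came in the later days. Comparing E8 with N2B27, 2 of the 4 members were called at day 6, where 5.28% of all genes were, and 2 at day 8, where 7.29% were. At days 2, 3 and 4 no member was called (4.55%, 1.68% and 2.49% of all genes). Of these 12 values 1 had an unadjusted p under 0.05, and DESeq2 called none. Comparing mTeSR with N2B27, 1 member was called at day 8 (3.8% of all genes) and none at days 4 and 6 (1.58% and 2.62%), although 6 of these 8 values had an unadjusted p under 0.05 and DESeq2 again called none. Comparing mTeSR with E8, 1 member was called at day 8 (5.31%) and none at days 4 and 6 (0.084% and 1.1%), with 3 of 8 values at an unadjusted p under 0.05 and none called by DESeq2. In total 6 of 44 such values were called.

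Between consecutive days 3 of 40 values were called, all in N2B27. They were IRX1 and IRX3 from day 4 to day 6, where 3.89% of all genes were called, and IRX3 from day 6 to day 8, where 1.43% were. From day 2 to day 3 and from day 3 to day 4 in N2B27 no member was called (3.18% and 1.09% of all genes), with 3 of 8 values at an unadjusted p under 0.05. In E8 no member was called in any of the 4 steps (7.56%, 0.81%, 2.51% and 0.804% of all genes in order of time), nor in the 2 steps of mTeSR (2.91% and 0.978%). Of these 24 values 9 had an unadjusted p under 0.05, and DESeq2 called none of the 24. From day 4 to day 8 the counts were 3 of 4 members in N2B27 (7.5% of all genes), 1 in E8 (8.28%) and 1 in mTeSR (9.25%), and the 1 gene called in all of them was IRX4.

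The supplements were compared at day 4 of Ex2, where XAV and FAX differ in the presence of FGF2 and Activin A. No member was called in XAV against N2B27 (0.57% of all genes were), in FAX against N2B27 (0.336%) or in FAX against XAV (0.012%). Of the 12 values 4 had an unadjusted p under 0.05, and DESeq2 called none. IRX4 was at 22.9 and 21.7 CPM in XAV, 19.1 and 19.9 CPM in FAX and 12.2 and 15.0 CPM in N2B27. The groups did not overlap, and the log2 difference of XAV from N2B27 was 0.71 ± 0.30 with a 95% interval of 0.10 to 1.32 (adjusted p = 0.398). IRX1 was at 6.84 and 6.17 CPM in XAV, 3.82 and 2.84 CPM in FAX and 4.95 and 5.23 CPM in N2B27. Its difference of FAX from XAV was -0.97 ± 0.34 (adjusted p = 0.814). IRX3 lay between 2.80 and 3.65 CPM in all 6 libraries, and its difference of XAV from N2B27 had a 95% interval of -0.84 to 0.87. IRX2 was lower with either supplement, at 131 and 142 CPM in XAV and 129 and 117 CPM in FAX against 196 and 192 CPM in N2B27. These differences of -0.51 ± 0.11 and -0.66 ± 0.11 had adjusted p = 0.0105 and 0.00149 and stayed under the fold threshold. That in XAV no longer had an adjusted p under 0.05 without any 1 of its 4 libraries (values of -0.45 to -0.57, adjusted p of up to 0.247), and that in FAX had 0.102 without replicate 2 of FAX (-0.59).

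IRX5 and IRX6, which did not pass the filter, had their highest values in FAX. IRX5 had 9 and 8 counts there (2.29 and 1.89 CPM), against 5 and 1 counts in N2B27 and 3 and 1 in XAV of the same experiment. In the other 36 libraries it had 0 to 6 counts. IRX6 had 2 counts in each FAX library and 6 counts in the other 36 libraries together, at most 1 in any. Without the filter on low counts the log2 difference of IRX5 between FAX and N2B27 was 1.45 (adjusted p = 1) and that between FAX and XAV was 2.30 (adjusted p = 0.881), so that a difference was not detectable at this depth. These values were singled out after they had been seen.

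The naive cultures and the repeated conditions gave a measure of the spread between experiments. IRX3 had 73.0 and 98.9 CPM on serum coating, 78.3 and 95.8 CPM on Geltrex in Ex1 and 48.1 and 62.0 CPM on Geltrex in Ex2. Coating made no detectable difference, with a log2 difference of 0.02 ± 0.20 for IRX3 and a 95% interval of -0.38 to 0.42. No member was called between coatings (0.048% of all genes were), between the naive cultures of Ex2 and Ex1 (4.67%) or between their N2B27 day 4 cultures (1.01%). Of these 12 values 3 had an unadjusted p under 0.05, and DESeq2 called none. Between the naive cultures of Ex2 and Ex1 the difference was -0.66 ± 0.21 for IRX3 and -0.56 ± 0.11 for IRX2 (adjusted p = 0.0268 and 0.000863), both under the fold threshold. That of IRX4 was larger, at -2.87, and was not called (adjusted p = 0.109). It rests on 1 count in the naive libraries of Ex2 together and 13 in those of Ex1 on Geltrex. For IRX3 the adjusted p was above 0.05 with DESeq2 (0.102) and without replicate 2 of naive Geltrex in Ex1 or replicate 1 of that in Ex2 (0.261 and 0.258). IRX3 at day 4 in N2B27 was at 3.65 and 3.09 CPM in Ex2 and at 2.25 and 1.43 CPM in Ex1.

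Over the means of the 19 groups in log2 CPM IRX3 and IRX4 had a Pearson's r of -0.81 and a Spearman's rho of -0.62, a value that rests on the 3 naive groups, by whose high level IRX3 was chosen. Over the 16 groups without them, an alternative added after the values had been seen, r was -0.43 and rho -0.37. For IRX1 and IRX3 the sign depended on them, with r = -0.56 and rho = -0.12 over all groups and r = 0.64 and rho = 0.47 without the naive ones. For IRX1 and IRX4 r went from 0.45 to -0.39, and for IRX2 and IRX3 from -0.26 to -0.65. These are descriptions over groups that share a line, experiments and days. Genes whose pattern over the 19 groups was most like that of each member were named by Pearson's r, from the 5 highest among genes with a mean of at least 5 CPM. For IRX1 they were WNT5A (r = 0.93), AMIGO2 (0.92), CYP1B1 (0.89), AMOTL1 (0.89) and EPHA4 (0.89). WNT5A encodes a secreted WNT ligand and EPHA4 an ephrin receptor. For IRX3 they were GDPD1 (0.95), KLF3 (0.95), SRSF12 (0.94) and DENND5A (0.93), among which KLF3 encodes a zinc finger repressor. These likewise rest on the naive groups, without which r was 0.61, 0.80, 0.61 and 0.57. For IRX4 they were SPIB (0.96), ZNF682 (0.94), RASSF8 (0.93), TRIM49 (0.93) and GBX2 (0.93), among which SPIB encodes an ETS factor and GBX2 a homeodomain factor. Without the naive groups r was 0.71 to 0.84 for the genes of IRX1 and 0.80 to 0.91 for those of IRX4. For IRX2 they were C5orf38 (0.86), STT3A (0.79), CCDC84 (0.77), CACNA2D1 (0.75) and DANCR (0.74), with 0.78 to 0.88 without the naive groups.

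**Figure D4:**
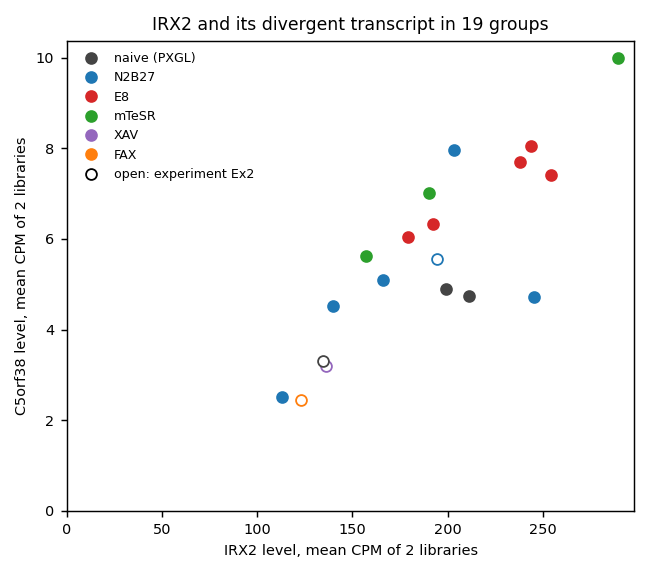
Level of C5orf38 (vertical axis) against that of IRX2 (horizontal axis), each as the mean CPM of 2 libraries, in the 19 groups, with open points for Ex2. The groups with the lowest IRX2 (N2B27 day 8, FAX, XAV and naive cells of Ex2) also have the lowest C5orf38 (2.44 to 3.29 CPM), and the group with the highest IRX2 (mTeSR day 4, 289 CPM) has the highest C5orf38 (10.0 CPM).

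C5orf38, the nearest like gene of IRX2, is the divergent transcript whose promoter window overlaps that printed above. It is annotated at chr5:2752131-2755397 on the plus strand, 454 bases from the 5′ end of IRX2. Its group means ran from 2.44 CPM in FAX to 10.0 CPM in mTeSR day 4, on 20 to 86 counts per group. Like IRX2 it was lower in N2B27 at day 8, with 2.17 and 2.86 CPM against 5.25 and 6.83 CPM in E8 and 3.92 and 7.33 CPM in mTeSR. The log2 difference was 1.26 ± 0.34 for E8 and 1.17 ± 0.35 for mTeSR (adjusted p = 0.00775 and 0.0271), and both were called, as was its fall from day 4 to day 8 in N2B27 (-1.03 ± 0.34, adjusted p = 0.0274). Whether the counting used the strand of the reads is not given in the sources used here.

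Genes near the members were described as a list of 53 genes of the count table whose annotated span lies within 1 Mb of a member, of 130 annotated there. The filter was passed by 19 of them. At day 8 in N2B27 3 stood higher than in naive cells and none lower, where 16.9% of all genes were called higher and 7.03% lower. For E8 the counts were 4 and 0 (18.2% and 9.24% of all genes), and for mTeSR 3 and 2 (16.9% and 8.2%). The median log2 difference of the 19 genes was -0.22, -0.01 and -0.01, beside -0.03, 0.00 and -0.02 over all genes. MMP2, which encodes a matrix metalloprotease and lies 455215 bases from IRX5, was higher in all 3 media, with 0.836 ± 0.193 CPM in naive cells (SD, n = 6) and 13.0 ± 3.78 CPM in N2B27, 2.79 ± 1.62 CPM in E8 and 10.2 ± 1.39 CPM in mTeSR at day 8 (SD, n = 2 each). CES1, a carboxylesterase, was likewise called in all 3 media, from 0.176 CPM in naive cells to at most 2.54 CPM. LPCAT2 was higher in N2B27 and E8. CRNDE, a long non-coding RNA read from the opposite strand next to IRX5, was higher in E8 at day 8 (19.1 ± 2.38 CPM against 8.00 ± 2.40 CPM, log2 difference 1.25 ± 0.22, adjusted p = 1.52e-05), and TERT, the catalytic subunit of telomerase, in mTeSR (1.57 ± 0.21, adjusted p = 2.16e-07). SLC12A7 (-1.15 ± 0.27) and CHD9 (-1.19 ± 0.16) were lower in mTeSR. FTO, the nearest gene to IRX3 that was tested and known to hold enhancers of IRX3 in its introns, was at 26.5 ± 2.18 CPM in naive cells and at 22.8 ± 3.33, 22.9 ± 4.87 and 19.3 ± 0.0239 CPM in N2B27, E8 and mTeSR at day 8, and was not called. Among the genes of the count table the nearest to IRX3, LINC02169, had 1 count in all libraries together. Those nearest on either side of IRX4, LINC02116 and CTD-2194D22.4, had 0 and 1.

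Between media at day 8, 3 neighbours were called in E8 against N2B27 (MMP2, LPCAT1 and C5orf38), 3 in mTeSR against N2B27 (TERT, LPCAT1 and C5orf38) and 2 in mTeSR against E8 (CRNDE and MMP2), out of 19 tested. Of all genes 7.29%, 3.8% and 5.31% were called in these comparisons. LPCAT1, near IRX4, was higher in E8 (54.9 CPM) and mTeSR (54.1 CPM) than in N2B27 (25.6 CPM), with log2 differences of 1.09 ± 0.20 and 1.07 ± 0.20 (adjusted p = 0.000188 and 0.000522). TERT was higher in mTeSR than in N2B27 by 1.01 ± 0.23 (adjusted p = 0.00384). MMP2 was lower in E8 than in N2B27 (-2.16 ± 0.38, adjusted p = 0.000127) and higher in mTeSR than in E8 (1.82 ± 0.40, adjusted p = 0.00219), the directions in which IRX1 also differed. It already differed at day 6 (-2.04 ± 0.42 and 1.57 ± 0.44), having risen from day 4 to day 6 in N2B27 (3.09 ± 0.45) and mTeSR (3.20 ± 0.54). Earlier than day 8, SLC12A7 was higher in E8 than in N2B27 at day 4 (1.28 ± 0.37), CES1 (2.26 ± 0.75) and LPCAT1 (1.09 ± 0.20) were so at day 6, and at day 4 LPCAT1 was also higher in mTeSR (1.33 ± 0.19). CRNDE rose from day 4 to day 8 in N2B27 (1.37 ± 0.26, adjusted p = 0.000221) and E8 (1.18 ± 0.25, adjusted p = 0.000766), and was lower in mTeSR than in E8 at day 8 (-1.05 ± 0.26, adjusted p = 0.00547). The other neighbours called from day 4 to day 8 were MMP2 and SLC12A7 in N2B27 and MMP2 and TERT in mTeSR, all higher at day 8, besides C5orf38. Between consecutive days SLC12A7 fell from day 2 to day 3 in N2B27. CRNDE rose from day 6 to day 8 in N2B27, and in E8 it fell from day 2 to day 3 and rose from day 3 to day 4.

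**Figure D5:**
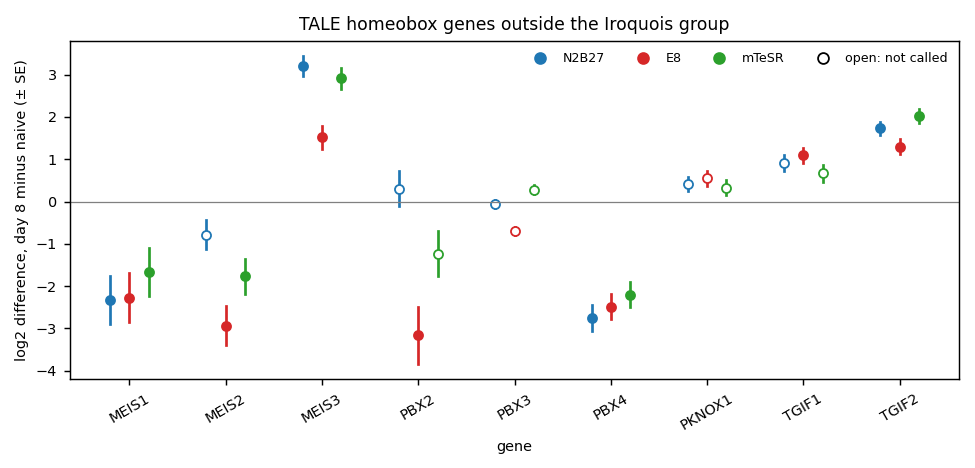
Log2 difference of day 8 from the 6 naive libraries (± SE) for 9 tested TALE homeobox genes outside the Iroquois group in N2B27, E8 and mTeSR, with filled points for called differences. MEIS3 and TGIF2 are filled above 0 and MEIS1 and PBX4 below 0 in all 3 media, TGIF1 is filled in E8 alone, while PBX3 and PKNOX1 are open.

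The other TALE homeobox genes include the PBX and MEIS families, whose products bind DNA together with other homeodomain proteins, and the TGIF repressors. Of 12 such genes 10 passed the filter, and PKNOX2 and MKX did not. Against naive cells, 2 of the 10 were called higher at day 8 in N2B27 and 2 lower. For E8 the counts were 3 and 4, and for mTeSR 2 and 3. Of all genes 16.9% were higher and 7.03% lower in N2B27, 18.2% and 9.24% were so in E8, and 16.9% and 8.2% in mTeSR. Their median log2 difference was 0.12, -0.42 and 0.23 in the 3 media, beside -0.03, 0.00 and -0.02 over all genes. MEIS3 rose from 4.93 ± 1.57 CPM (SD, n = 6) to 44.4 ± 3.27 CPM in N2B27, 13.9 ± 5.63 CPM in E8 and 36.2 ± 6.62 CPM in mTeSR (SD, n = 2 each), which are log2 differences of 3.21 ± 0.23, 1.52 ± 0.27 and 2.91 ± 0.24. TGIF2 rose by 1.73 ± 0.16, 1.30 ± 0.17 and 2.03 ± 0.16 in the same order. TGIF1 rose in E8 (1.09 ± 0.18, from 23.7 ± 7.56 CPM to 51.2 ± 5.45 CPM), and its differences of 0.92 ± 0.19 in N2B27 and 0.67 ± 0.20 in mTeSR were under the fold threshold. PBX4 fell from 25.5 ± 3.15 CPM to between 3.75 and 5.51 CPM, and MEIS1 from 3.06 ± 1.35 CPM to at most 0.963 CPM. MEIS2, which differed between the naive cultures of Ex2 and Ex1 (-1.15 ± 0.34, adjusted p = 0.0208), was lower in E8 (-2.94 ± 0.46) and mTeSR (-1.77 ± 0.41), and in N2B27 its difference was -0.78 ± 0.34 (adjusted p = 0.0587). PBX2 was called lower in E8 (-3.16 ± 0.67), and its difference in mTeSR was -1.23 ± 0.54 (adjusted p = 0.0618). PBX3 (244 ± 29.4 CPM in naive cells) did not pass the fold threshold in any medium.

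At day 8 the TALE genes that differed between E8 and N2B27 were MEIS3, MEIS2 and PBX2, all lower in E8 as IRX1 and IRX3 were. MEIS3 differed by -1.69 ± 0.23 (adjusted p = 2.29e-06), MEIS2 by -2.15 ± 0.44 (1.15 against 5.23 CPM, adjusted p = 0.000573) and PBX2 by -3.46 ± 0.66 (0.375 against 4.82 CPM, adjusted p = 0.000275). PBX2 had a standard deviation of 0.530 CPM over the 2 E8 libraries, more than its mean. MEIS3 was also higher in mTeSR than in E8 (1.40 ± 0.24, adjusted p = 0.000117), and at day 8 no TALE gene of the list was called between mTeSR and N2B27. These are 3, 1 and 0 of the 10 genes, where 7.29%, 5.31% and 3.8% of all genes were called. At day 6 PBX2 was called lower in mTeSR than in N2B27 (-1.97 ± 0.63, adjusted p = 0.0460), and no other TALE gene was called between media before day 8. In N2B27 MEIS3 rose from day 4 to day 6 (1.27 ± 0.22, adjusted p = 0.000224), the step at which IRX1 and IRX3 rose. It also rose at this step in mTeSR (1.17 ± 0.25, adjusted p = 0.00267), where IRX1 and IRX3 were not called. In N2B27 MEIS2 rose from day 6 to day 8 (1.94 ± 0.42, adjusted p = 0.00515), the step at which IRX3 rose again. It had fallen before, from day 2 to day 3 in N2B27 (-1.48 ± 0.33), a step at which no member was called. In E8 it fell from day 2 to day 3, from day 3 to day 4 and from day 4 to day 6 (-1.54 ± 0.29, -1.38 ± 0.35 and -1.76 ± 0.53), where no member was called either. PBX4 fell in E8 from day 2 to day 3 (-1.30 ± 0.28). From day 4 to day 8 PBX4 fell in N2B27 (-1.03 ± 0.31) and E8 (-1.21 ± 0.30), MEIS2 rose in N2B27 (1.28 ± 0.37), and MEIS3 rose in N2B27 (from a mean of 15.7 to 44.4 CPM) and mTeSR (1.74 ± 0.25 on the log2 scale).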

How the data were processed

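QuantSeq 3′ libraries of 38 samples were processed by the authors with an nf-core RNA-seq workflow (FastQC 0.11.9, STAR 2.7.10a, Salmon 1.9.0, hg38) and deposited as 1 table of raw counts for 57133 gene symbols, of which 14445 had no count. Every column of the table was matched to a sample by the library name in the sample description (0 columns were not used). The 2 libraries of each of the 19 groups are called technical replicates in some places of the study and biological replicates in another, so that p-values measure only the spread between these libraries, which may be technical.

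Counts of all 38 libraries were fitted together with edgeR 4.0.16 in R 4.3.3 (limma 3.58.1). The 16674 genes kept by filterByExpr (count minimum 10) held 99.6% of all counts. Scaling was by TMM, tests were quasi-likelihood F-tests, and p-values were adjusted by the Benjamini-Hochberg method over all genes tested. A gene was called at an adjusted p under 0.05 and a log2 fold change beyond 1 in either direction. Errors of log2 differences are standard errors, errors of CPM are standard deviations, and intervals are at 95%. The common dispersion was 0.0100, a coefficient of variation of 10.0% between libraries. A permutation test of 2 against 2 libraries cannot go below p = 0.333 and was not used. The scripts were tested on simulated data before use.

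The members, the lists of markers, TALE genes and neighbours, and the promoter motifs were chosen with earlier results of these data known. The text names the members, IRX6, the TALE list, neighbours within 1 Mb that were called or nearest to a member, and for each tested member the 5 genes with the highest Pearson correlation over group means among genes with a mean of at least 5 CPM. Gene positions were taken by symbol from GENCODE on GRCh38, and promoter windows from RefSeq. Alternatives were RLE size factors, library totals, no filter, more than 10 counts in at least 2 libraries, a replicate block, the compared libraries alone, DESeq2 1.42.0 and each library left out in turn. Single genes that these rules would name are not reported here.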

Additional observations from a re-analysis of the deposited data

Results flagged for a closer look

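The results listed here are differences between groups in the size of an effect. The course from day 2 to day 8 differed between E8 and N2B27 for IRX2 (adjusted p = 0.000122, F-test of the interaction terms in edgeR). It also differed for IRX3 (adjusted p = 0.0208). The day 4 to day 8 step of IRX3 was larger in N2B27 than in E8 by 2.35 on the log2 scale (adjusted p = 0.0234). It was larger in N2B27 than in mTeSR by 2.93 (adjusted p = 0.00479). Levels of the members in the pooled groups of 4 to 6 libraries (10 tested) held no library far enough from the others to stand out by Dixon's criterion.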

How the results depend on the processing

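The number of member differences called between media at equal days was 6 and ran from 4 to 6 when single libraries were left out, with 7 when only the compared libraries were fitted. Between consecutive days it was 3, from 2 to 4 with single libraries left out, and 6 both without a filter on low counts and when only the compared libraries were fitted. The added calls were steps of IRX4, namely day 6 to day 8 in N2B27 (-1.23 in either setting, adjusted p = 0.0395 and 0.0313), day 4 to day 6 in E8 (-1.07 and -1.08, adjusted p = 0.020 and 0.00232) and day 4 to day 6 in mTeSR (-1.13 and -1.12, adjusted p = 0.0383 and 0.0330). Day 8 against day 4 gave 5 calls, and 4 to 5 with single libraries left out. The differences between steps gave 2 calls, and 1 to 2 with single libraries left out, with 1 lost without any of replicate 2 of N2B27 day 4, replicate 1 of N2B27 day 8, replicates 1 and 2 of E8 day 4, replicate 1 of E8 day 8 or replicate 2 of mTeSR day 4. The course differed for 2 members, for 1 with DESeq2, and for 1 to 3 with single libraries left out. Calls among the supplements and among the naive cultures were 0 in all settings run. Calls of neighbours and TALE genes at day 8 against naive cells, summed over the 3 media, numbered 28, with 27 to 30 in the other settings. A gene called in more than 1 medium is counted once for each. A group left with 1 library was assumed to vary like the other groups.

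Among the 61 tested values of single members that were called or exceeded 0.5 in size the sign changed for 2, neither of them called. Of the 71 smaller ones 38 changed sign in at least 1 setting, and none was called in any. The difference of IRX4 between naive cells on Geltrex and on serum was 0.94, and ran from -0.53 to 1.55 with single libraries left out. The difference of the IRX3 step from day 4 to day 8 between mTeSR and E8 was -0.58, and ran from -1.18 to 0.20. The untested difference of IRX2 from naive cells also crossed 0 in E8 at day 2 and day 8, N2B27 at day 2 and day 4, mTeSR at day 6 and XAV, where it lay between -0.63 and 0.22 over all settings. The cause was not tested. With the replicate number as a block the calls were 6 between media, 4 between days (the added one being IRX4 in E8 from day 4 to day 6, -1.05, adjusted p = 0.0434), 0 and 0 for supplements and naive cultures, 5 for day 8 against day 4, 2 for differences between steps and 3 for the course (adding IRX1, adjusted p = 0.0419). The replicate numbers did not pair the libraries, since over 171 pairs of groups the correlation of same-numbered deviations ran from -0.350 to 0.258 with a median of 0.0031. Depth limits IRX6, which had at most 2 counts, IRX5, which had at most 9, and the naive level of IRX4.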
